A study of Mus musculus with 8 samples.

Results

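The T cell receptor, its CD3 signalling subunits and the CD8 and CD4 co-receptors were followed through bulk RNA sequencing of 8 subcutaneous tumours. The 10 genes were taken by name from a table of 14133 genes. They are Trac, Trbc1 and Trbc2 (receptor constant chains), Cd3d, Cd3e, Cd3g and Cd247 (signalling subunits), Cd8a and Cd8b1 (CD8 chains) and Cd4. All 10 were in the table and passed the filter on low counts. The tumours grew from CT26, a mouse colon carcinoma line, in male mice whose strain the labels write as BABL/C and whose genotype they write as WT. The 4 control tumours came from mice with PBS treatment. The other 4 came from mice that received the beta-blocker propranolol every day, injected into the peritoneum, once tumours measured 70 to 100 cubic millimetres. The dose, the age of the mice and the day of collection were not among the details used here. No label ties a tumour to its own animal, so the p-values reflect only how these samples spread, which may be technical. The design text speaks of profiles made in duplicate, while the titles number 4 samples in each group. The 4 were used as separate samples, and every SD, n and p-value rests on that reading. The submitters' title refers to T cell exhaustion, and the comparison asks how much transcript of the receptor and its co-receptors the tumours of each group held.

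In a mature T cell the alpha and beta chains recognise peptide on MHC molecules but lack a signalling tail. The CD3 gamma, delta, epsilon and zeta subunits carry the signalling motifs, and the receptor reaches the cell surface efficiently only when it is fully assembled. CD8, on cytotoxic T cells, binds MHC class I, and CD4, on helper and regulatory T cells, binds MHC class II. Both bring the kinase LCK to the receptor. In mice Cd8a is also transcribed in a subset of dendritic cells, Cd4 in some dendritic cells, and Cd247 in NK cells.

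Library totals ran from 15483409 to 17511937 counts. The labels call the cell type colon cancer cell, whereas the RNA came from excised tumours. Of the epithelial markers, Krt18 lay between 5.76 and 20.2 CPM (read counts divided by library size, here scaled by TMM, the trimmed mean of M-values), Krt8 between 0.121 and 14.0 CPM and Cdh1 between 0.569 and 3.33 CPM. Epcam, Krt19, Vil1 and Cdx2 were looked for by name and were not among the 14133 genes. Ptprc, the pan-leucocyte gene for CD45, lay between 47.9 and 260.3 CPM. Control tumour 4 held skeletal muscle transcripts, with a summed level of 874 CPM over 9 muscle genes, against 6.84 to 86.6 CPM in the others. Without that tumour the log2 fold changes of the 10 chains ran from 0.43 to 2.38.

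All 10 chains had their higher fitted level under propranolol, a direction found for 49.4% of all genes. For 9 of them, Cd4 being the exception, the log2 fold change was at least 1 in edgeR. With limma-voom it was at least 1 for 6, and the values were lower, with 0.98 for Trac, 0.88 for Cd3e, 0.95 for Cd247, 1.35 for Cd8a and 0.33 for Cd4. Propranolol tumours 1 and 4 held the highest pair of values for every chain (10.6% of all genes). Propranolol tumour 3 held the lowest value for 8 of the 10, and the share of all genes lowest there was not computed. No chain passed the threshold, an adjusted p under 0.05 over all genes (edgeR's quasi-likelihood test, Benjamini-Hochberg adjustment). The log2 fold changes ran from 0.39 for Cd4 to 2.16 for Cd8a, with a median of 1.71 over the 10 chains against -0.00218 over all genes tested. In bulk tissue, more T cells and more receptor transcript per T cell cannot be told apart.

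In that test 0 of 14006 genes passed in either direction (0%), with a smallest adjusted p of 0.999. Unadjusted p-values under 0.05 were found for 173 higher and 100 lower genes, and for 2 chains, Cd3d and Cd8b1, against 1.24% of all genes in the higher direction. DESeq2 and limma-voom also gave 0 genes past the threshold. DESeq2 gave 337 genes and 5 chains at an unadjusted p under 0.05, and limma-voom 249 genes and 0 chains. A log2 fold change of at least 1 was found for 1.84% of all genes tested. The authors' deposited table marks the same 5 chains that DESeq2 gave (Trbc2, Cd3d, Cd3g, Cd8a and Cd8b1) as up, a mark it gives to 0.672% of its genes. The adjusted p-value there is 0.9997 for each. The chains varied together across the tumours, so their number is not a number of separate observations.

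**Figure D1:**
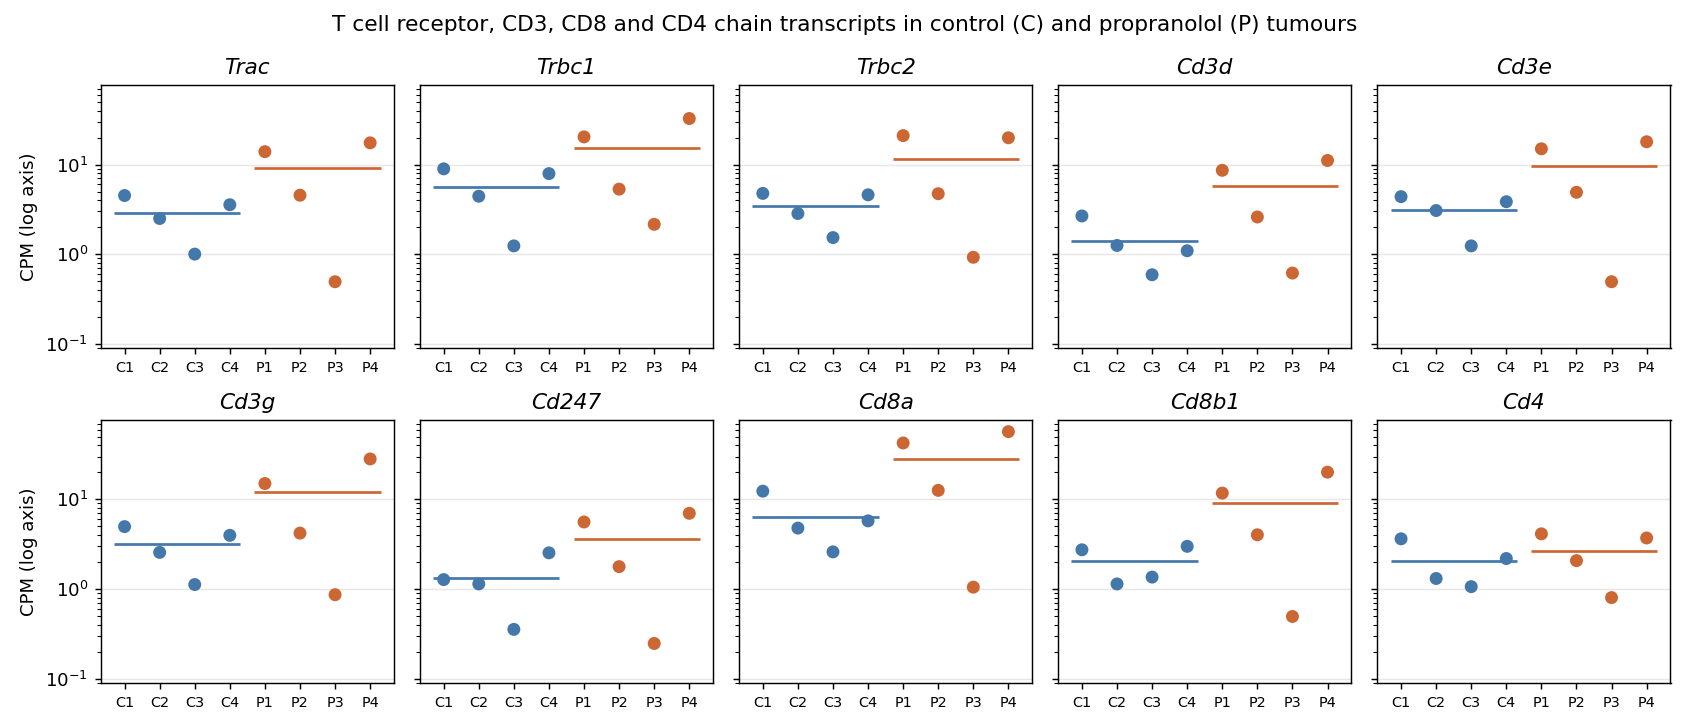
CPM on a log axis (TMM-scaled library sizes) of the 10 chains in each of 4 control tumours (C1 to C4) and 4 propranolol tumours (P1 to P4). Points are tumours and lines are group means. Propranolol tumours 1 and 4 lie above every control tumour in each panel and propranolol tumour 3 lies lowest in 8 of the 10. The share of all genes lowest in propranolol tumour 3 was not computed.

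Trac, the only constant gene of the alpha chain (ENSMUSG00000076928, GRCm39 chromosome 14 from 54457978 to 54461663, plus strand), stood at 4.52, 2.50, 1.0 and 3.56 CPM in control tumours 1 to 4. In propranolol tumours 1 to 4 it stood at 13.9, 4.55, 0.493 and 17.5 CPM. Propranolol tumours 1 and 4 were far above the controls, tumour 2 was just above control tumour 1, and tumour 3 lay below every control, so the groups overlapped. Group means were 2.90 ± 1.51 and 9.12 ± 7.93 CPM (SD, n = 4 each), with a log2 fold change of 1.66 (SE 0.90, edgeR, adjusted p = 0.999).

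The beta chain has a pair of near-identical constant genes on chromosome 6, Trbc1 (41515152 to 41516815) and Trbc2 (41523664 to 41525286), whose starts lie 8512 bases apart. How reads shared by the pair were counted is not known here, so the split between them is uncertain. Trbc1 stood at 8.97, 4.44, 1.24 and 7.93 CPM in control tumours and at 20.4, 5.32, 2.16 and 32.7 CPM in propranolol tumours 1 to 4. Trbc2 stood at 4.77, 2.84, 1.53 and 4.60 CPM in control tumours and at 21.1, 4.73, 0.924 and 19.9 CPM in propranolol tumours. For both, propranolol tumours 1 and 4 lay above every control and the other 2 lay among or below them. The log2 fold changes were 1.42 (SE 0.89) for Trbc1 and 1.76 (SE 0.86) for Trbc2. The share of Trbc1 in the counts of the pair was 65.3, 60.9, 44.7 and 63.3% in control and 49.2, 52.9, 70.0 and 62.1% in propranolol tumours 1 to 4. Its exact binomial 95% interval was 45.5 to 52.9% in propranolol tumour 1 and 58.8 to 65.4% in propranolol tumour 4, so these tumours with high receptor levels differed in the split beyond counting error. These intervals and those below cover counting error only, since reads are not independent molecules.

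Cd3d, Cd3g and Cd3e encode the delta, gamma and epsilon subunits and lie together on chromosome 9. Cd3g (44880870 to 44891729, minus strand) and Cd3d (44893084 to 44898637, plus strand) are transcribed away from each other from starts 1355 bases apart, and the start of Cd3e (44910038 to 44920925, minus strand) lies 27841 bases from that of Cd3d. Their promoter windows and that of Cd8a are shown as examples. Whether these sequences bear on the levels in the tumours was not tested. The windows are from RefSeq on GRCm38.p6, an older build than that of the table, and run from 250 bases before to 50 bases after the start. Capitals mark GGAA on either strand (GGAA or TTCC), the core letters of ETS family motifs. RefSeq held windows for 5 of the 10 chains, those shown and that of Cd247, which is not printed.
Cd3d, chr9:44981536-44981835, plus strand: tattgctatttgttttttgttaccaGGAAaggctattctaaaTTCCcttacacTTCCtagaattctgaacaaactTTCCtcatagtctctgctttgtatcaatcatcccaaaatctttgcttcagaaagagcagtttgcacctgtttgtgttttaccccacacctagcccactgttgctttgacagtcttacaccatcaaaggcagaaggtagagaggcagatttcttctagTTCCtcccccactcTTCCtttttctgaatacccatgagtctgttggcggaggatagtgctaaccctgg
Cd3g, chr9:44980382-44980681, minus strand: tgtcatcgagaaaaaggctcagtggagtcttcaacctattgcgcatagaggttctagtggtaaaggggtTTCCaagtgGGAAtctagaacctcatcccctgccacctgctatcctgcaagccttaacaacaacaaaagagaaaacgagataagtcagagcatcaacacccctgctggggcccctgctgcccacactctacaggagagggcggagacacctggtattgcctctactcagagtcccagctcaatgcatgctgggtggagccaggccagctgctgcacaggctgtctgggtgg
Cd3e, chr9:45009562-45009861, minus strand: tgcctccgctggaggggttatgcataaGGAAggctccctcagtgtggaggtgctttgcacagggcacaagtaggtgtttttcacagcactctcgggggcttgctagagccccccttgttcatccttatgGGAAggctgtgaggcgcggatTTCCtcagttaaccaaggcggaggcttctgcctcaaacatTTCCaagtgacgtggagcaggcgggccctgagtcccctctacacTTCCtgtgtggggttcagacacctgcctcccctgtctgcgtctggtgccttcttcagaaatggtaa
Cd8a, chr6:71373177-71373476, plus strand: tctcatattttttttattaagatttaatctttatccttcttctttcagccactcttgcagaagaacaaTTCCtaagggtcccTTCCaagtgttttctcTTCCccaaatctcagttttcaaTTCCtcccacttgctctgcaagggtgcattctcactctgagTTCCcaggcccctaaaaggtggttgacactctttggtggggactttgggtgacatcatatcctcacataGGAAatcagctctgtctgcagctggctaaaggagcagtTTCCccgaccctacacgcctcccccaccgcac
GGAA was found 6 times in the window of Cd3d, 2 times in Cd3g, 5 times in Cd3e, 7 times in Cd8a and 2 times in Cd247. Of all 32851 RefSeq promoter windows, 96.0% hold it at least once. Windows with 5 or more matches make up 28.6% of all. CANNTG, the E-box, had 1 match in Cd3d, 4 in Cd3g, 2 in Cd3e, 3 in Cd8a and 2 in Cd247, and 72.3% of all windows hold it. In the windows of Cd3g, Cd3e and Cd8a, 1 GGAA match overlapped an E-box. TATAAA (either strand, 13.6% of all windows) and TGTGGT (either strand, a RUNX motif, 16.8%) had 0 matches in the 5 windows.

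Cd3d, the delta subunit, stood at 2.67, 1.25, 0.589 and 1.09 CPM in control tumours 1 to 4 and at 8.64, 2.60, 0.616 and 11.1 CPM in propranolol tumours. Propranolol tumours 1 and 4 lay above every control, and tumours 2 and 3 lay within the control range. Its log2 fold change was 2.04 (SE 0.82, adjusted p = 0.999).

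Cd3e, the subunit that pairs with both gamma and delta, stood at 4.39, 3.07, 1.24 and 3.85 CPM in control and at 15.0, 4.91, 0.493 and 18.0 CPM in propranolol tumours. Here propranolol tumours 1, 2 and 4 exceeded all controls, tumour 2 only just, and tumour 3 lay below all of them. Cd3g stood at 4.96, 2.56, 1.12 and 3.97 CPM in control and at 15.0, 4.20, 0.862 and 28.2 CPM in propranolol tumours. It stood farthest above Cd3e, in counts large enough to tell, in propranolol tumour 4, where the count ratio of Cd3g to Cd3e was 1.57 (95% interval 1.36 to 1.82) against 1.0 (0.841 to 1.19) in propranolol tumour 1. The log2 fold changes were 1.61 (SE 0.88) for Cd3e and 1.94 (SE 0.95) for Cd3g.

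Cd247 (chromosome 1 from 165616250 to 165704846), which encodes the zeta chain, had between 4 and 115 counts, the lowest count of any chain in a single tumour. It stood at 1.27, 1.14, 0.354 and 2.53 CPM in control and at 5.59, 1.77, 0.246 and 6.99 CPM in propranolol tumours, and the log2 fold change was 1.46 (SE 0.88). Control tumour 4 was the highest control for Cd247, unlike for the other CD3 subunits. The gene overlaps Pou2f1 on the opposite strand by 12124 bases, and whether counting used strand is not known here. Pou2f1, a transcription factor gene, stood at 32.6 ± 5.33 CPM under PBS and 33.3 ± 5.34 CPM under propranolol (SD, n = 4 each).

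Cd8a (chromosome 6 from 71350411 to 71356157) and Cd8b1 (71299772 to 71314478) encode the partner chains of CD8. Cd8a stood at 12.3, 4.78, 2.59 and 5.75 CPM in control and at 42.6, 12.6, 1.05 and 57.0 CPM in propranolol tumours 1 to 4. Cd8b1 stood at 2.74, 1.14, 1.36 and 2.99 CPM in control and at 11.7, 4.02, 0.493 and 20.1 CPM in propranolol tumours. For both, propranolol tumours 1, 2 and 4 exceeded all controls and tumour 3 lay below all of them. Trac and Cd3e did the same, so 4 of the 10 chains had at least 3 of 4 propranolol values over the highest control, against 5.86% of all genes. Their log2 fold changes, 2.16 (SE 1.01) for Cd8a and 2.14 (SE 0.92) for Cd8b1, lay closer together than their standard errors.

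The balance of the CD8 chains varied between tumours of the same group. The count ratio of Cd8b1 to Cd8a was 0.222 (95% interval 0.155 to 0.31) in control tumour 1 and 0.238 (0.138 to 0.391) in control tumour 2, but 0.523 (0.301 to 0.885) in control tumour 3 and 0.52 (0.365 to 0.734) in control tumour 4. In propranolol tumours 1 to 4 it was 0.276, 0.319, 0.471 and 0.353. The intervals of control tumours 1 and 4 did not overlap, and the propranolol values lay inside the control range.

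Cd4 (chromosome 6 from 124841655 to 124865184, minus strand) varied least. It stood at 3.63, 1.31, 1.06 and 2.18 CPM in control and at 4.12, 2.07, 0.801 and 3.71 CPM in propranolol tumours. Propranolol tumours 1 and 4 were only just above control tumour 1. The highest tumour exceeded the lowest 5.15-fold, against 18.9-fold for Cd3d and 54.4-fold for Cd8a, the smallest and largest spans among the other 9. The group means were 2.04 ± 1.16 and 2.67 ± 1.53 CPM (SD, n = 4 each), and the log2 fold change was 0.39 (SE 0.53).

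**Figure D2:**
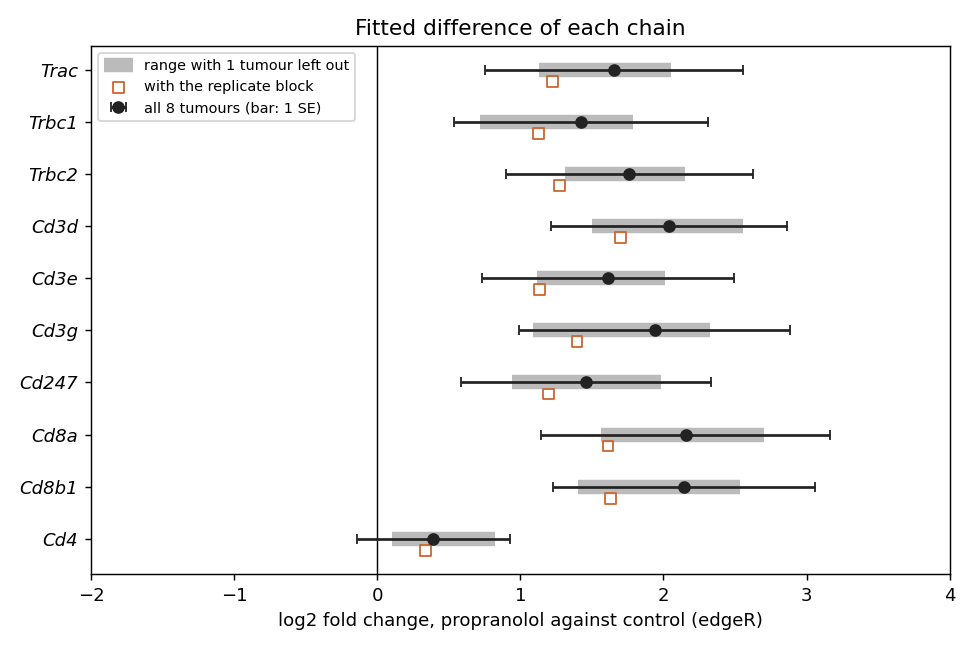
Log2 fold change of each chain from edgeR, propranolol against control, with 1 standard error (black), the range over the 8 fits that each leave out 1 tumour (grey) and the fit with the replicate number as a block (open squares). Cd4 lies at 0.39 and the other chains between 1.42 and 2.16, and no leave-out range reaches 0, although the standard error bar of Cd4 does.

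The size of the differences moved with single tumours. Leaving out propranolol tumour 4 gave log2 fold changes of 0.72 for Trbc1, 0.94 for Cd247, 1.09 for Cd3g and 1.56 for Cd8a. Leaving out propranolol tumour 1 took Cd4 to 0.10. Leaving out propranolol tumour 3, the tumour with the lowest levels, gave Cd8a 2.56 (SE 0.65), Cd8b1 2.54 (SE 0.55) and Cd3e 2.01 (SE 0.51). In that fit 8 of the 10 chains had an unadjusted p under 0.05, all higher in propranolol, against 5.35% of all genes, and again 0 passed (smallest adjusted p 0.640). Leaving out propranolol tumour 2 gave 2 such chains, with 271 of 14067 genes under 0.05 and higher. Leaving out control tumour 1 gave 1 such chain, with 199 of 14068 genes. Without control tumour 2, 3 or 4, or without propranolol tumour 1 or 4, the count of chains was 0. In those fits 64 to 175 of 14038 to 14079 genes were under 0.05 and higher. With the replicate number as a block, 6 of the 10 chains had an unadjusted p under 0.05, against 3.63% of all genes in the higher direction, and 0 passed (smallest adjusted p over all genes 0.929). The labels state no such pairing. It was taken from correlations in these same data, where only 4 of 8 tumours correlated best with their own number. The p-values with the block are thus not independent support. Within pairs of equal number, Trbc1 and Cd3d were higher in the propranolol tumour in 4 of 4 pairs and the other 8 chains in 3 of 4, with pair 3 the exception. The share of all genes with such pair counts was not computed, so these counts are descriptive only.

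**Figure D3:**
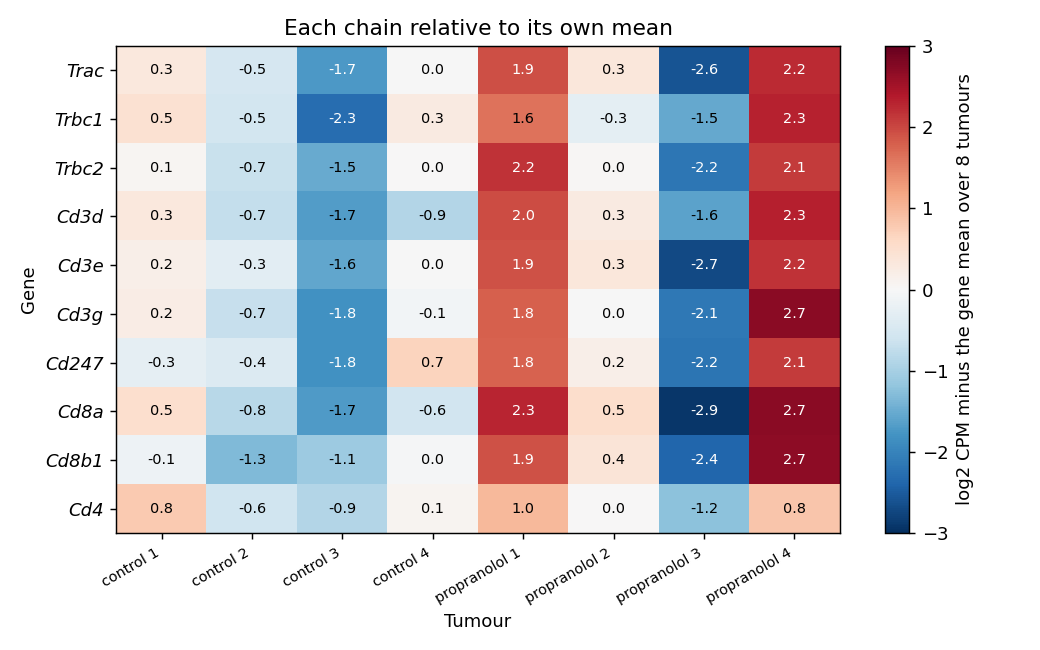
Log2 CPM of each chain (rows) in each tumour (columns) minus the mean of that chain over the 8 tumours. Red is above and blue below the mean. Within a column most rows share a colour, and the Cd4 row is the palest, with values from -1.2 to 1.0.

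Across the 8 tumours the chains ranked the tumours in nearly the same order. Log2 CPM of Trac followed that of Cd3e most closely, with Pearson r = 0.998 (exact permutation p = 2.48e-05, the smallest possible, Benjamini-Hochberg adjusted over 9 chains 0.000112) and Spearman rho = 1. For Cd8a the values were r = 0.985 (exact permutation p = 2.48e-05, adjusted 0.000112) and rho = 1, with an exact permutation p for rho of 4.96e-05 for both. The lowest were Cd4, with r = 0.915 (exact permutation p = 0.000372, adjusted 0.000837) and rho = 0.905 (exact permutation p = 0.00456, adjusted 0.00456), and Trbc1, with r = 0.928 (exact permutation p = 0.00288, adjusted 0.00288) and rho = 0.905. Without propranolol tumours 3 and 4, which lie farthest from the median of Cd3e, r was 0.996 for Trac, 0.967 for Cd8a, 0.859 for Cd4 and 0.947 for Trbc1. The 8 tumours include both groups, each of which holds too few for a correlation of its own. Cd4 thus followed the order of the other chains while covering a smaller range.

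Levels of different genes were compared per length, with the deposited FPKM (fragments scaled to gene length and library size). Averaged over the 8 tumours the order was Trbc1 (13.9), Trbc2 (11.0), Trac (6.47), Cd8a (4.80), Cd8b1 (3.78), Cd3g (2.34), Cd3d (1.98), Cd3e (1.57), Cd4 (0.589) and Cd247 (0.47 FPKM). Trbc2 exceeded Trac, and Trac exceeded Cd8a, in 8 of 8 tumours. The other neighbours did not keep their order in every tumour. Trbc1 exceeded Trbc2 in 6 of 8 tumours, Cd8a exceeded Cd8b1 in 5 of 8 tumours, Cd3g exceeded Cd3d in 5 of 8 and Cd3d exceeded Cd3e in 6 of 8. Cd4 exceeded Cd247 in 6 of 8 tumours, all but propranolol tumours 1 and 4. Mean levels were 0.509 FPKM for Cd4 and 0.249 FPKM for Cd247 in control tumours. In propranolol tumours they were 0.668 ± 0.389 and 0.69 ± 0.596 FPKM (SD, n = 4 each), so only the order of the means turned. The lengths behind these FPKM values, from the counts, run from 0.693 kb for Trbc2 to 5.34 kb for Cd247, and a gene whose reads fill only part of that length is understated.

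Ratios within a tumour do not depend on library size. The ratio of Trac to Cd3e counts was the steadiest, between 0.81 and 1.03 in all 8 tumours although Cd3e itself spanned 36.5-fold. The ratio of Cd8a to Cd3e lay at 2.81, 1.56, 2.1 and 1.49 in control tumours 1 to 4 and at 2.83, 2.57, 2.13 and 3.17 in propranolol tumours. The propranolol values were on average higher by 0.45 on the log2 scale, with overlapping groups (exact permutation p = 0.143, adjusted over 4 ratios 0.533, two-sided).

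The ratio of Cd8a to Cd4 counts was 3.40, 3.65, 2.44 and 2.63 in control tumours and 10.3, 6.09, 1.31 and 15.4 in propranolol tumours 1 to 4. The control tumours lay close together, while propranolol tumours 1, 2 and 4 lay above all of them and tumour 3 below. The 95% counting intervals were 8.12 to 13.3 in propranolol tumour 1 and 11.9 to 20.3 in propranolol tumour 4, above that of every control tumour, the highest of which reached 6.07. The interval of propranolol tumour 2, 4.24 to 8.97, overlapped those of controls. The log2 ratio averaged 1.56 ± 0.28 in control and 2.56 ± 1.56 in propranolol tumours (SD, n = 4 each), a difference of 1.0 (exact permutation p = 0.286, adjusted 0.533, two-sided). With 4 tumours against 4 the smallest p that this test can give is 0.0286. Without propranolol tumour 3 the difference was 1.73 (exact permutation, adjusted p = 0.114), and without propranolol tumour 4 it was 0.54. Per length, the ratio of Cd8a to Cd4 FPKM ran from 1.45 to 17.0.

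Cd4 to Cd3e ran the other way, at 0.826, 0.426, 0.857 and 0.567 in control and 0.274, 0.422, 1.63 and 0.206 in propranolol tumours. Propranolol tumours 1, 2 and 4 lay below every control and tumour 3, with 8 counts of Cd3e, lay above them. The log2 ratio was lower by 0.55 on average in propranolol tumours (exact permutation p = 0.4, adjusted 0.533), and without propranolol tumour 3 the difference was -1.16. Cd247 to Cd3e differed by 0.0867 (exact permutation p = 0.771), and its sign turned without control tumour 1 (-0.0422), control tumour 3 (-0.0303) or propranolol tumour 3 (-0.0368).

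**Figure D4:**
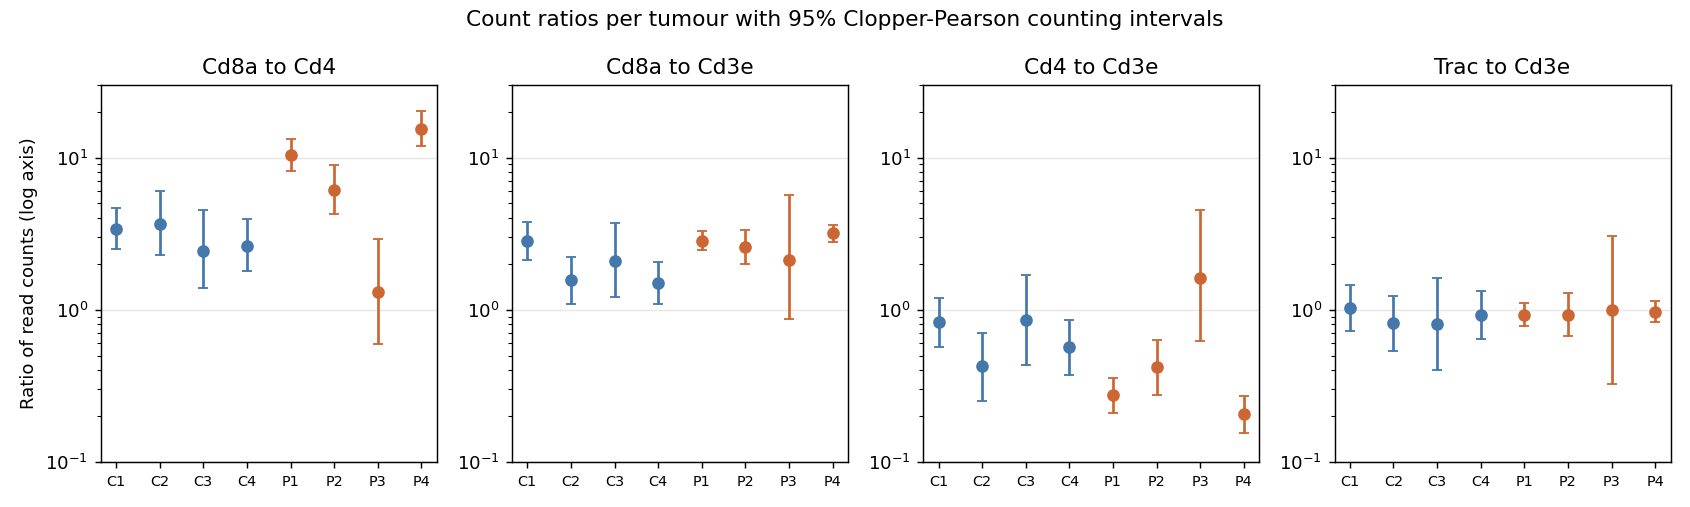
Ratios of read counts within each tumour on a log axis, with exact (Clopper-Pearson) 95% binomial intervals that cover counting error only. C1 to C4 are control and P1 to P4 propranolol tumours. Cd8a to Cd4 spans 1.31 to 15.4, while Trac to Cd3e stays between 0.81 and 1.03.

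Downstream of the receptor, 18 of 19 tested signalling genes were on the higher side under propranolol and 0 passed, with a median log2 fold change of 0.94. Themis, a regulator of receptor signalling, was fitted at 1.97 (SE 1.01) and had 0 CPM in its lowest tumour. Ubash3a, a phosphatase-related inhibitor of the receptor, had 1.51 (SE 0.78), the adaptor gene Lat 1.33 (SE 0.71) and the adaptor gene Sla2 0.86 (SE 0.47). Among surface accessory receptors 11 of 11 tested genes were higher, 0 passed and the median was 1.11. They include Cd96 at 1.80 (SE 0.84), Cd226, an activating receptor, at 1.66 (SE 0.96), the adhesion receptor Cd2 at 1.38 (SE 0.79) and the costimulatory receptor Cd28 at 1.26 (SE 0.76).

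Of the lineage transcription factors 10 of 12 were higher, against 49.4% of all genes, and 0 passed, with a median of 0.51. Bcl11b, needed for T cell identity, had a log2 fold change of 1.27 (SE 0.62), Ikzf3 1.41 (SE 0.89), Gata3, a helper cell factor, 0.58 (SE 0.34) and Runx3, a CD8 lineage factor, 0.24 (SE 0.11). Of the genes for receptor assembly, recycling and restraint 6 of 6 were higher and 0 passed, with a median of 0.37. Cblb, a ubiquitin ligase that restrains receptor signalling, had 0.45 (SE 0.17). Sla, Coro1a and Laptm5, the last a lysosomal protein that lowers receptor levels, had 0.63 (SE 0.41), 0.49 (SE 0.39) and 0.30 (SE 0.23). Trdc, the constant gene of the delta chain of gamma-delta T cells, stood at 1.84, 0.739, 0.118 and 2.87 CPM in control and at 4.52, 1.18, 0.493 and 3.52 CPM in propranolol tumours, with a log2 fold change of 0.80 (SE 0.86). Sox13, the other tested gene of that list, had 0.02 (SE 0.34).

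The profile of the CD3 genes (mean centred log2 CPM of Cd3d, Cd3e and Cd3g) was compared with 13484 other genes over the 8 tumours by the root mean square difference on the log2 scale. The closest were Klrc1, an NK and CD8 T cell receptor gene (0.211), the chemokine receptor gene Cxcr6 (0.237), Cd226 (0.247), Ubash3a (0.249), Cd74, the MHC class II invariant chain (0.253), Dnase1l3, a secreted DNase (0.257), the class II chain gene H2-Ab1 (0.257) and Ms4a4b, a T cell membrane protein gene (0.277). Trac, at 0.212, was as close, and Cd4, at 0.819, was the farthest of the 10 chains. The genes closest to Cd4 itself were BE692007 (0.173), Ly86, which encodes a partner of a Toll-like receptor family member (0.183), Eif4e3 (0.208), the receptor kinase gene Grk3 (0.225) and the cathepsin gene Ctsh (0.227). No other chain came closer to Cd4 than Trbc2, at 0.782.

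Markers were also read for other cells, some of which can hold Cd8a, Cd4 or Cd247 without a T cell receptor. The share of all genes on the higher side under propranolol, 49.4%, applies to each marker count below. Of NK cell markers 9 of 9 tested were on the higher side under propranolol and 0 passed. Their summed level was 114 to 192 CPM under PBS and 109 to 297 CPM under propranolol. Most of that sum came from Fcgr3 (72.3 CPM in the control mean) and Fcer1g (64.5 CPM), Fc receptor genes that macrophages also express. Ncr1, a more NK-restricted receptor gene, stood at 4.93 ± 3.14 CPM under PBS and 9.76 ± 8.40 CPM under propranolol (SD, n = 4 each). For type 1 dendritic cells it was 8 of 8, 0 passed, with 205 to 302 and 210 to 439 CPM. Cadm1 (147 CPM in the control mean) made up most of that sum. Log2 fold changes over the 8 genes ran from 0.02 for Cadm1 to 1.58 for Xcr1, the defining receptor of these cells. Xcr1 averaged 2.60 ± 1.85 and 7.74 ± 9.31 CPM (SD, n = 4 each). Macrophage and monocyte markers were higher in 9 of 10, 0 passed, with 2188 to 3352 and 2017 to 4578 CPM. Other dendritic and plasmacytoid markers were higher in 3 of 8, 0 passed, with 224 to 341 and 157 to 259 CPM. That sum, mostly Fscn1 (243 CPM in the control mean), was lowest in propranolol tumour 4 and, among propranolol tumours, highest in tumour 3, the reverse of the chains. B cell markers were higher in 2 of 3, 0 passed, with 1.71 to 3.63 and 1.79 to 5.70 CPM. In the NK, type 1 dendritic and macrophage sums propranolol tumours 1 and 4 were the highest, as for the 10 chains. The part of these cells in the levels of Cd8a, Cd4 and Cd247 was not tested.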

How the data were processed

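RNA of 8 CT26 tumours was sequenced, and the deposited table gives raw read counts and FPKM of each gene in each tumour, per the file headers. Further columns give the authors' own log2 fold change with its p-value, raw and adjusted. Per the submitters' processing notes the tools were fastp 0.19.3, HISAT2 2.1.0, featureCounts 1.6.2, StringTie 1.3.4d, DESeq2 1.22.1 and edgeR 3.24.3, with GRCm39 and no roles stated. Strand use and the handling of shared reads are not stated there.

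From the deposited counts, edgeR 4.0.16 (R 4.3.3; TMM, filterByExpr, robust quasi-likelihood F test, Benjamini-Hochberg at 0.05) tested 14006 genes and removed 127. CPM use TMM-scaled library sizes, and log2 CPM a prior count of 2. Ratios are of counts, with 0.5 added on the log2 scale. DESeq2 1.42.0, limma-voom (limma 3.58.1), other scalings, no filter, a replicate block and leaving out each tumour were alternatives. The smallest chi-square per degree of freedom within a group, 12.7, gave no sign of copied libraries. Both groups are numbered 1 to 4 in the labels, and deviations from group means of same-numbered tumours correlated over genes (0.19, 0.311, 0.508 and 0.277 for numbers 1 to 4), which was taken as a pairing found in the data. Some differently numbered tumours correlated as well (0.383 for control 4 with propranolol 1, 0.315 for control 1 with propranolol 4), and 4 of 8 tumours correlated best with their own number. The edgeR and permutation steps were tested on simulated data. Members and lists were chosen with earlier results of these data known. Named are all 10 chains, up to 4 genes per pathway list by smallest p, and the 8 and 5 genes closest in profile to the CD3 genes and to Cd4, among those averaging 0 or more in log2 CPM; Xcr1 and the receptor segments were added after their values were seen.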

Additional observations from a re-analysis of the deposited data

Results flagged for a closer look

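Among 38 groups of 4 values (10 chains and 9 ratios in each treatment group), 2 held a tumour far from the other 3, where chance flags about 1 in 20. Both were count ratios in propranolol tumour 3, the tumour with the fewest receptor counts. Its ratio of Cd4 to Cd3e was 1.63 (95% interval 0.624 to 4.52), against 0.206 to 0.422 in the other propranolol tumours. Its ratio of Cd3d to Cd3e was 1.25 (95% interval 0.444 to 3.64), against 0.53 to 0.618. Both rest on 8 counts of Cd3e. The first interval overlaps that of propranolol tumour 2 (0.276 to 0.633) but not those of propranolol tumours 1 and 4, and the second overlaps those of all the other propranolol tumours.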

How the results depend on the processing

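The count of genes past the threshold was 0 in all 15 fits, and so was the count of chains. All 10 chains kept their sign in every fit. With the replicate block, genes at an unadjusted p under 0.05 numbered 717 in place of 273, and Cd8a had a log2 fold change of 1.61. Such genes numbered 134 when propranolol tumour 1 was dropped and 1017 when propranolol tumour 3 was. The ratio differences kept their sign and stayed short of the threshold under a pseudocount of 1, with FPKM and without any 1 tumour, except Cd247 to Cd3e, which turned without control tumour 1, control tumour 3 or propranolol tumour 3 (-0.0422 to 0.34 over the 8 fits). After adjustment over 4 ratios that threshold was out of reach for 1 ratio alone. For the ratios the replicate block is no check, since the mean difference within pairs equals that between groups and 4 pairs are too few for that test to reach 0.05. The correlations with Cd3e passed with a prior count of 0.5 and without 2 tumours. Low counts limit propranolol tumour 3, where Trac, Cd3e and Cd8b1 had 8 counts each and Cd247 had 4. Its library total, 16773175 counts, lay within the range of the other tumours. Tumour purity was not measured.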

Other observations

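Besides the constant genes, the table held 3 joining segments and 1 variable segment of the beta chain, looked at after their values were seen. Trbv19, the variable segment, had 2, 2, 0 and 5 counts in control tumours 1 to 4 and 29, 2, 0 and 17 counts in propranolol tumours 1 to 4. The joining segment Trbj1-1 had 7, 7, 0 and 11 counts in control and 22, 6, 1 and 34 counts in propranolol tumours. Trbj1-4 had 14, 4, 0 and 11 counts in control and 26, 2, 5 and 23 counts in propranolol tumours. Trbj1-5 had 6, 9, 4 and 5 counts in control and 22, 6, 0 and 23 counts in propranolol tumours. All these segments were highest in propranolol tumours 1 and 4, the tumours with the highest constant chain levels. Trbv19 was higher in tumour 1 and Trbj1-1 in tumour 4, while Trbj1-4 and Trbj1-5 differed little between those tumours. These are single-digit to low double-digit counts and carry no test.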
